A study of Arabidopsis thaliana with 22 samples.

Results

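The C24 mock libraries of the first set are 2 of its 11 libraries and 2 of the 22 libraries of the series. Here they are set against the other 9 libraries of the first set, taken as 5 blocks. The first set is columns 1 to 11 of the deposited count table, and C24 mock is its columns 5 and 6. The other blocks are Ba-1 mock 1 with Ba-1 UV 1, Ba-1 mock 2 with Ba-1 UV 2, C24 UV 1 alone, C24 UV 2 with Got-7 mock 1, and Got-7 mock 2 with Got-7 UV 1. These blocks were chosen by expression values of the same columns, and they cross the labels. Every difference between C24 mock and the blocks is therefore a description, and nothing is supported with its p-value.

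The study examined transcriptional responses to ultraviolet light in natural accessions of Arabidopsis thaliana, which are inbred wild strains. The labels give C24 mock as seedlings of accession C24 with a mock treatment. They give the other 9 libraries as Ba-1 UV, Ba-1 mock, C24 UV, Got-7 UV and Got-7 mock, so 5 of the 9 were labelled UV and 4 mock. No transgene or mutant allele is named for any group. All plants had grown for 14 days on soil, with 16 h days at 22 °C, 8 h nights at 18 °C, light of about 150 µmol and 50% relative humidity. UV came from fluorescent tubes with 4.35 W per square metre at 312 nm, and whole seedlings were frozen 3 h after the treatment. The labels leave unsaid whether libraries of 1 group are from separate plants. Errors measure only the spread between libraries within a block, which may be technical. Apart from C24 mock, the blocks that hold a pair of libraries join different labels. The spread from block to block is not part of the errors. Because only 4 of the 9 libraries share the mock label, treatment and accession cannot be told apart in part of the comparison.

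Values are given as CPM, the deposited counts divided by their library's total and scaled to 1e+06 counts. Totals in the first set ran from 3539510 to 20903894 counts, with 6423024 in C24 mock 1 and 9844746 in C24 mock 2. A count of 0 allows up to 3 counts, which was 0.848 CPM in Ba-1 mock 1, the library with the fewest counts, and 0.144 CPM in C24 UV 1, the one with the most. Such limits cover counting error only. The 2 C24 mock libraries had the same pattern (Pearson r = 0.993 on log2(CPM + 1) over the 17249 loci tested). Their counts differed by more than sampling noise, with a chi-square of 1.86 per degree of freedom, so they were kept as 2 libraries. Against the other 9 libraries, r lay between 0.925 and 0.947. Between different blocks of the other 9 it lay between 0.933 and 0.967.

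The labels were checked on the values before any result. Some loci were expressed in both C24 mock libraries and under 0.5 CPM in both libraries labelled C24 UV, so libraries with the C24 label did not share 1 state. Libraries are therefore named as labelled, and the comparison is between C24 mock as labelled and the blocks of the rule. The seedling label was checked with marker genes of organs. The 4 shoot markers (LHCB1.1, LHCB1.3, RBCS1A and RCA) summed to 36460 and 36440 CPM in C24 mock, against 36050 to 42720 CPM in the other 9. The 8 root markers summed to 32.1 and 31.3 CPM in C24 mock, against 23.7 to 37.1 CPM, and EXPA7 and PRP3 were at 0 in both C24 mock libraries. The 5 flower markers summed to 0.934 and 3.56 CPM in C24 mock, against 0.909 to 5.31 CPM, with PI at 0 in both C24 mock libraries. The 5 seed markers summed to 0.467 and 0 CPM in C24 mock, against 0 to 0.657 CPM, with CRA1, CRU3 and ABI3 at 0 in both. Each of these sums in C24 mock lay within the range of the other 9. How much root was sampled was not tested. In libraries labelled as whole seedlings, fewer cells of a type and less RNA per cell cannot be told apart.

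Salicylic acid is a plant hormone of immunity to pathogens that feed on living tissue. ICS1, EDS5 and PBS3 act in its synthesis from chorismate, EDS1 and PAD4 relay signals of immune receptors to it, and CBP60G switches on the synthesis genes. Its receptor NPR1 works with TGA and WRKY transcription factors to switch on output genes such as the PR genes. DMR6 and DLO1 hydroxylate salicylic acid and so lower it. PNP-A encodes a secreted plant natriuretic peptide. MAM1 encodes a methylthioalkylmalate synthase, which lengthens the side chain of glucosinolates made from methionine.

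The promoters of 3 genes that stood high in C24 mock are shown because WRKY and TGA factors bind short elements in promoters of such genes. Each line is the 250 bases before the annotated gene start in the RefSeq sequence of assembly TAIR10.1, 5′ to 3′ on the gene's strand. That sequence is of the Columbia accession, not of the plants sampled. The windows are chr2:8091737-8091986 on the minus strand for PNP-A, chr5:8378509-8378758 on the plus strand for DMR6 and chr4:6490767-6491016 on the plus strand for DLO1. Capitals mark the W-box core TTGAC and the TGA box TGACG on either strand.
PNP-A: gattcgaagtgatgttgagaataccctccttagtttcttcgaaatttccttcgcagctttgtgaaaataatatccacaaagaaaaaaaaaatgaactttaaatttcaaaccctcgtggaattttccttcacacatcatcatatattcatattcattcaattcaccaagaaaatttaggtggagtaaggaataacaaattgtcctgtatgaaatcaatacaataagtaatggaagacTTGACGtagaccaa
DMR6: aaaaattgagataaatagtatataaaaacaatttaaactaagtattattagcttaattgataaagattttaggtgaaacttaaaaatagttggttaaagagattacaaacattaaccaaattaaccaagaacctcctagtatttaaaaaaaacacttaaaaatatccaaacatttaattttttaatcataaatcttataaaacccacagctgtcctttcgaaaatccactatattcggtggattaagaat
DLO1: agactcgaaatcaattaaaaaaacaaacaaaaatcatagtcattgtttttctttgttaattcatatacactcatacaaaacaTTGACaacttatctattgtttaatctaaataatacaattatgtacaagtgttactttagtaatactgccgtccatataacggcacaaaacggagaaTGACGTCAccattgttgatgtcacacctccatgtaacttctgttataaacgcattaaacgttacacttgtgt
The PNP-A window held 1 W-box core and 1 TGA box, overlapping as TTGACG. The DMR6 window held 0 of either, and the DLO1 window 1 W-box core and 2 TGA boxes that overlap on opposite strands. Among 27443 promoters of protein-coding genes of the same length, 44.9% held TTGAC, 18.6% held TGACG and 7.19% held TTGACG. These matches are descriptions of letters, and no binding was measured.

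The first group of genes is the hormone's output. PNP-A (AT2G18660, chr2:8089411-8091736) stood at 113.5 and 119.6 CPM in C24 mock. In the other 9 libraries it had a lowest value of 0 CPM, a median of 0.708 CPM and a highest value of 9.89 CPM, in Ba-1 mock 1. The groups did not overlap, and the log2 difference between C24 mock and the mean log2 level of the 5 blocks was 7.43 ± 0.27 (SE, edgeR). A fitted difference averages the blocks on the log2 scale, so it departs from the ratio of mean CPM where blocks are unlike. It also depends on edgeR's prior count where a block had 3 counts or fewer, as 1 block had here. By the ratio of mean CPM, C24 mock was 66.0-fold higher, at 117 CPM against 1.77 CPM over the 5 blocks. PR1 (AT2G14610), the classic marker of salicylic acid signalling, stood at 1007 and 908 CPM in C24 mock, against 0.286, 1.55 and 183 CPM as lowest, median and highest of the other 9. Its log2 difference was 8.16 ± 0.43, and its mean was 958 CPM in C24 mock against 27.0 CPM over the 5 blocks. The highest of the others was Ba-1 UV 1, and 7 of the other 9 were at or under 5.72 CPM. PR2, a beta-1,3-glucanase, had 355 and 421 CPM in C24 mock, against 3.73 to 98.7 CPM, a log2 difference of 5.26 ± 0.16. PR5, a thaumatin-like protein, had 370.5 CPM in both C24 mock libraries, against 14.6 to 132 CPM, a log2 difference of 3.29 ± 0.06. The aspartyl protease gene AED1 had 622 and 678 CPM in C24 mock, against 1.98 to 148.6 CPM, and LURP1, needed for basal defence to an oomycete, had 794.5 and 796 CPM, against 53.1 to 568 CPM.

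**Figure D1:**
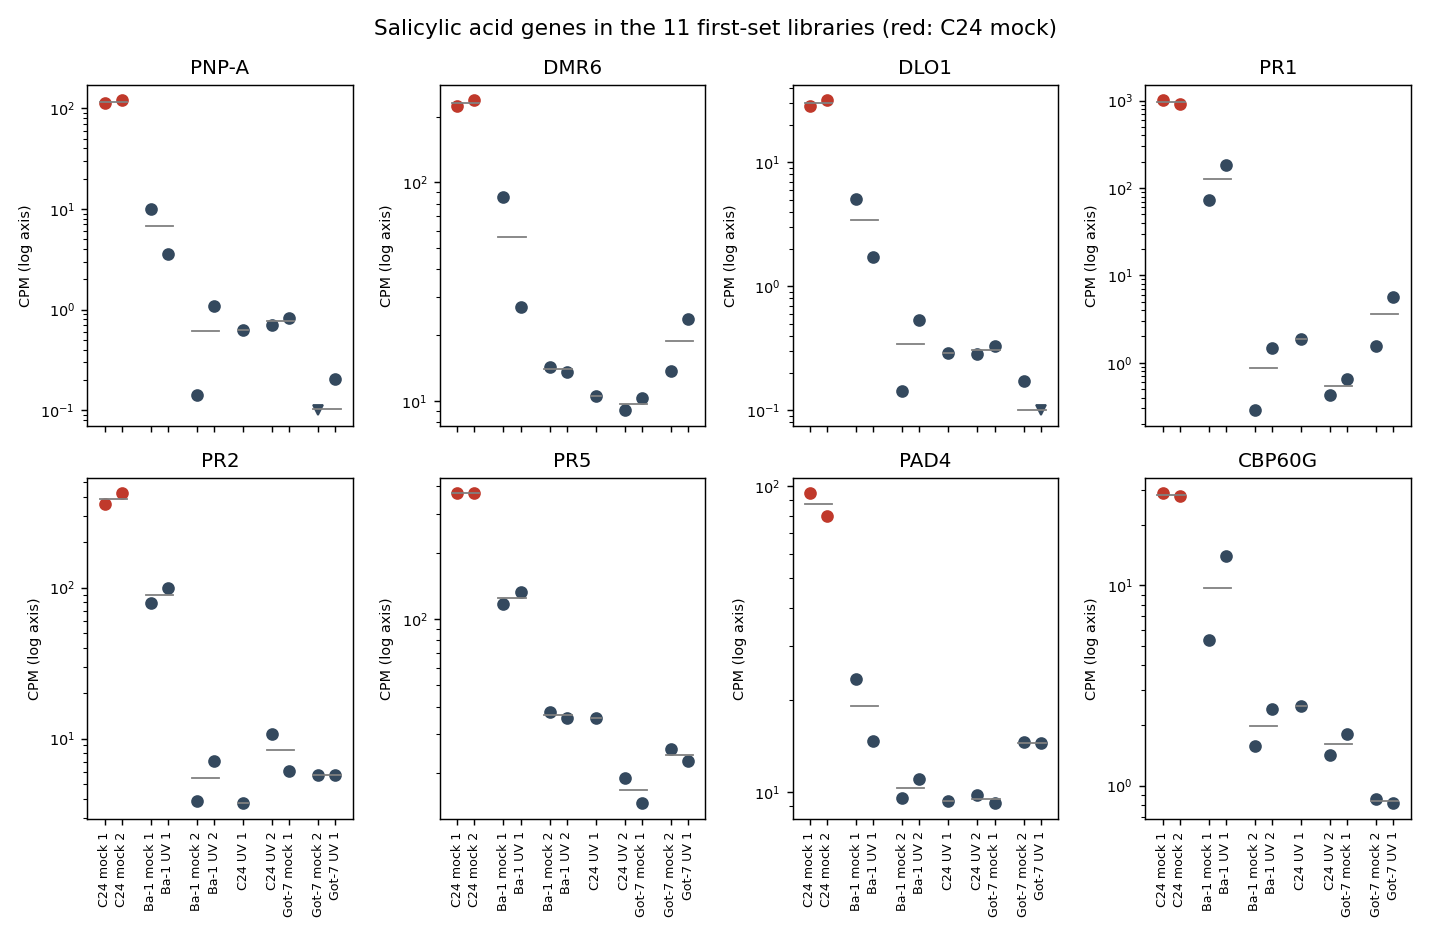
CPM (log axis) of 8 salicylic acid genes in each first-set library, with C24 mock at the left in red and the other 5 blocks after it. Points are libraries, grey bars are block means, and triangles stand for values under 0.1 CPM. In all 8 panels both C24 mock libraries lie above the other 9, and Ba-1 mock 1 or Ba-1 UV 1 is the highest of those.

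Of 19 output genes listed, 17 could be tested, and 14 were called higher in C24 mock and 0 lower (edgeR, Benjamini-Hochberg adjusted p under 0.05). Over all 17249 loci tested, 19.4% were called higher and 16.8% lower. Since these values also shaped the blocks, the count is read as a description of C24 mock only. The median log2 difference of the 17 was 3.29, beside 0.00 over all loci tested. A locus is named set apart here if it was called, differed by at least 2-fold and had both C24 mock libraries beyond every one of the other 9, which held for 13 of the 17. GRX480 reached 1 CPM in fewer than 2 of the other 9 libraries, so it could be tested only because C24 mock reached that level. Without it, 13 of 16 were called higher. Across all loci, 4.10% were set apart higher and 1.23% set apart lower. Of the loci tested, 262 depended on C24 mock in this way, and without them 574 were set apart higher in place of 707. The 3 output genes that were not called were ACD6, AIG1 and SAG13. ACD6, a membrane protein that varies between accessions, had 484 and 523 CPM in C24 mock, against 21.9 to 786.5 CPM. AIG1 had 2.96 and 4.77 CPM in C24 mock, against 0 to 12.7 CPM, and SAG13 had 14.3 and 13.0 CPM, against 0 to 50.7 CPM, with its highest value in Ba-1 UV 1.

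The genes that break down or conjugate salicylic acid did not move as 1 group. DMR6 (AT5G24530, chr5:8378759-8383401) stood at 223 and 237.5 CPM in C24 mock. Its lowest, median and highest values in the other 9 were 9.07, 13.8 and 85.9 CPM, and the log2 difference was 3.76 ± 0.35. The groups did not overlap, with Ba-1 mock 1 the nearest. DLO1, its close relative, had 28.3 and 31.7 CPM in C24 mock, against 0 to 5.09 CPM, a fitted log2 difference of 6.13 ± 0.25. With 1 block at 3 counts or fewer, its ratio of mean CPM was 33.9. UGT76B1, which attaches glucose to salicylic acid and to a signal derived from isoleucine, had 9.81 and 5.28 CPM in C24 mock, against 0 to 10.4 CPM. It was called higher (2.89 ± 0.53, ratio of mean CPM 3.90 with 1 block at 3 counts or fewer), but Ba-1 UV 1 was above both C24 mock libraries. Both salicylic acid glucosyltransferases of the UGT74F pair were called lower. UGT74F2 had 2.49 and 2.03 CPM in C24 mock, against 2.43 to 13.8 CPM (log2 difference −1.27 ± 0.35), and UGT74F1 had 1.71 and 1.63 CPM, against 1.88 to 8.38 CPM (−1.1 ± 0.34). Neither was called without C24 mock 1 or without C24 mock 2. Of 6 genes of this list tested, 3 were called higher and 2 lower, with a median of 1.55, beside 19.4% and 16.8% of all loci.

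Among the genes that make the hormone or control that step, 12 of 17 tested were called higher and 0 lower, with a median log2 difference of 1.17. FMO1 reached 1 CPM in fewer than 2 of the other 9 libraries, so it could be tested only because C24 mock reached that level. Without it, 12 of 16 were called higher, with a median of 1.08, beside 19.4% of all loci called higher. CBP60G had 28.8 and 27.8 CPM in C24 mock, against 0.817 to 14.1 CPM (3.53 ± 0.21). PAD4 had 94.5 and 79.5 CPM in C24 mock, against 9.20 to 23.5 CPM (2.83 ± 0.10), and ICS1 had 54.8 and 51.7 CPM, against 4.97 to 25.1 CPM (2.25 ± 0.10). PBS3, which joins glutamate to isochorismate, had 20.7 and 22.0 CPM in C24 mock, against 1.1 to 11.9 CPM (2.81 ± 0.18). WRKY46, a transcription factor gene, had 18.2 and 14.1 CPM, against 0.493 to 7.69 CPM (3.05 ± 0.21). For each of these, C24 mock did not overlap the other 9. EDS1 was called higher (1.17 ± 0.18) but overlapped, with 90.9 and 82.3 CPM in C24 mock and 92.4 CPM in Ba-1 mock 1. ICS2, the minor copy of ICS1, was not called, with 5.14 and 6.91 CPM in C24 mock against 4.29 to 9.38 CPM. ALD1 and FMO1, which make pipecolic acid and its active form, were also not called. ALD1 had 2.18 and 2.74 CPM in C24 mock, against 0 to 16.9 CPM, and FMO1 had 3.27 and 2.54 CPM, against 0 to 9.25 CPM. For both, Ba-1 UV 1 was the highest of the 11 libraries.

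Over the 3 salicylic acid lists, 29 of 40 genes tested were called higher, 2 were called lower and 21 were set apart higher. The shares over all loci were 19.4%, 16.8% and 4.10%. GRX480, among the 29, and FMO1, not called, could be tested only because C24 mock reached 1 CPM. Among the other 9 libraries, the highest value of these 29 genes was in Ba-1 mock 1 for 17, in Ba-1 UV 1 for 11 and in Got-7 UV 1 for 1. At most of these genes 1 of those Ba-1 libraries was thus the highest of the other 9. It was above both C24 mock libraries at EDS1, UGT76B1 and GRX480. The share of all loci with their highest value in those Ba-1 libraries was not counted. With Ba-1 mock 1 and Ba-1 UV 1 left out, 33 of the 40 were called higher and 2 lower, beside 23.2% and 19.3% of all loci in that fit. With libraries labelled mock alone, as labelled groups of Ba-1 and Got-7 that each join different blocks, 17 of the 40 were called higher and 0 lower, beside 3.57% and 1.22% of all loci. At an unadjusted p under 0.05, 12.8% of all loci were higher and 8.18% lower in that fit. With the other 9 libraries as 1 group, the numbers were 19 and 0, beside 4.31% and 3.28% of all loci.

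Genes of immune receptors came next. Cysteine-rich receptor-like kinases (CRKs) are membrane kinases, many of which respond to salicylic acid and to pathogens. Of 17 CRK genes listed, 16 could be tested and were called higher in C24 mock, 11 of them set apart, with a median log2 difference of 3.34. CRK20 was testable only through C24 mock, and without it 15 of 15 were called higher and 10 set apart, with a median of 3.30. Beside them, 19.4% of all loci were called higher and 4.10% set apart higher. Against the libraries labelled mock alone 6 of the 16 were called higher, and with the other 9 as 1 group 9 were, beside 3.57% and 4.31% of all loci. CRK4 had 134 and 154 CPM in C24 mock, against 0 to 12.1 CPM, and CRK7 had 38.1 and 36.9 CPM, against 0 to 6.50 CPM. Both had 2 blocks at 3 counts or fewer, so their fitted log2 differences (7.49 and 7.13) are no measure of size. Their ratios of mean CPM were 32.6 and 31.9. CRK45 had 41.1 and 42.4 CPM in C24 mock, against 0.283 to 36.7 CPM (4.08 ± 0.16), with Ba-1 mock 1 close below. CRK20 was low in the first set, at 2.02 and 2.44 CPM in C24 mock against 0 to 0.430 CPM. Many CRK genes lie in tandem on chromosome 4, and reads shared by near-identical copies could be split between them, so single members are uncertain.

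NLR genes encode intracellular receptors that recognise pathogen effectors, and helper NLRs relay their signal. Of 25 tested, 21 were called higher and 0 lower, 8 of them set apart, beside 19.4%, 16.8% and 4.10% of all loci. The median log2 difference was 0.89, which was the same with RPM1 at its bound. With libraries labelled mock alone, 0 of 25 were called in either direction by edgeR. At an unadjusted p under 0.05, 11 were higher and 0 lower, beside 12.8% and 8.18% of all loci. That fit takes part of its spread from the Ba-1 mock and Got-7 mock pairs, whose libraries come from different blocks (r = 0.955 and 0.962). Absent calls in that fit therefore do not show absent differences. The median there was 0.75, and 3.57% of all loci were called higher. With the other 9 as 1 group, 5 were called higher, beside 4.31% of all loci, with a median of 0.81. CSA1 and CHS3 are a neighbouring pair at chr5:5908834-5913317 and chr5:5916862-5923494 whose proteins act together. CSA1 had 121 and 132 CPM in C24 mock, against 73.5 and 67.3 CPM in Ba-1 mock 1 and Ba-1 UV 1, 23.5 to 27.5 CPM in C24 UV 1, C24 UV 2 and Got-7 mock 1, and 0 CPM in the other 4. CHS3 had 65.6 and 63.0 CPM in C24 mock, against 0 to 0.134 CPM in the same 4 libraries and 29.1 to 50.0 CPM in the other 5. Their fitted log2 differences (6.32 and 4.25) depend on the blocks at or near 0 and are no measure of size. SNC1, a receptor whose activation raises salicylic acid, had 244 and 264 CPM in C24 mock. In the other 9 libraries it had a lowest value of 2.92 CPM, in C24 UV 1, a median of 55.0 CPM and a highest value of 124 CPM. Its log2 difference was 2.83 ± 0.09. SNC1 sits in a cluster of related genes, so shared reads could shift this value. The helper ADR1 had 16.8 and 14.5 CPM in C24 mock, against 0.409 to 9.61 CPM (1.96 ± 0.17). RPM1 was not called. It was at 0 in both C24 mock libraries, and in the others it was at 0 to 0.142 CPM in 5 and at 7.78 to 13.7 CPM in 4.

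Pattern-triggered immunity, the response to conserved microbial molecules at the cell surface, showed 15 of 24 genes called higher and 0 lower, with 6 set apart and a median of 0.61. FRK1 and NHL10 were testable only through C24 mock or a single other library. Without them 14 of 22 were called higher, with a median of 0.46, beside 19.4% of all loci called higher. There were 5 of 23 called higher with libraries labelled mock alone, and with the other 9 as 1 group 4 of 24, beside 3.57% and 4.31% of all loci. RLP23, a receptor for a conserved peptide of microbial proteins, had 83.0 and 72.8 CPM in C24 mock, against 0.493 to 20.6 CPM (5.55 ± 0.14). The transcription factor genes WRKY53 and WRKY18 had log2 differences of 2.90 ± 0.19 and 2.75 ± 0.12 with no overlap. WRKY53 had 18.7 and 16.0 CPM in C24 mock, against 0.850 to 10.2 CPM. FRK1, a common marker of this response, was called higher (3.36 ± 0.69, ratio of mean CPM 4.43 with 3 blocks at 3 counts or fewer), but its 4.36 and 5.79 CPM in C24 mock lay under the 8.33 CPM of Ba-1 UV 1. The call of FRK1 was lost without C24 mock 2.

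**Figure D2:**
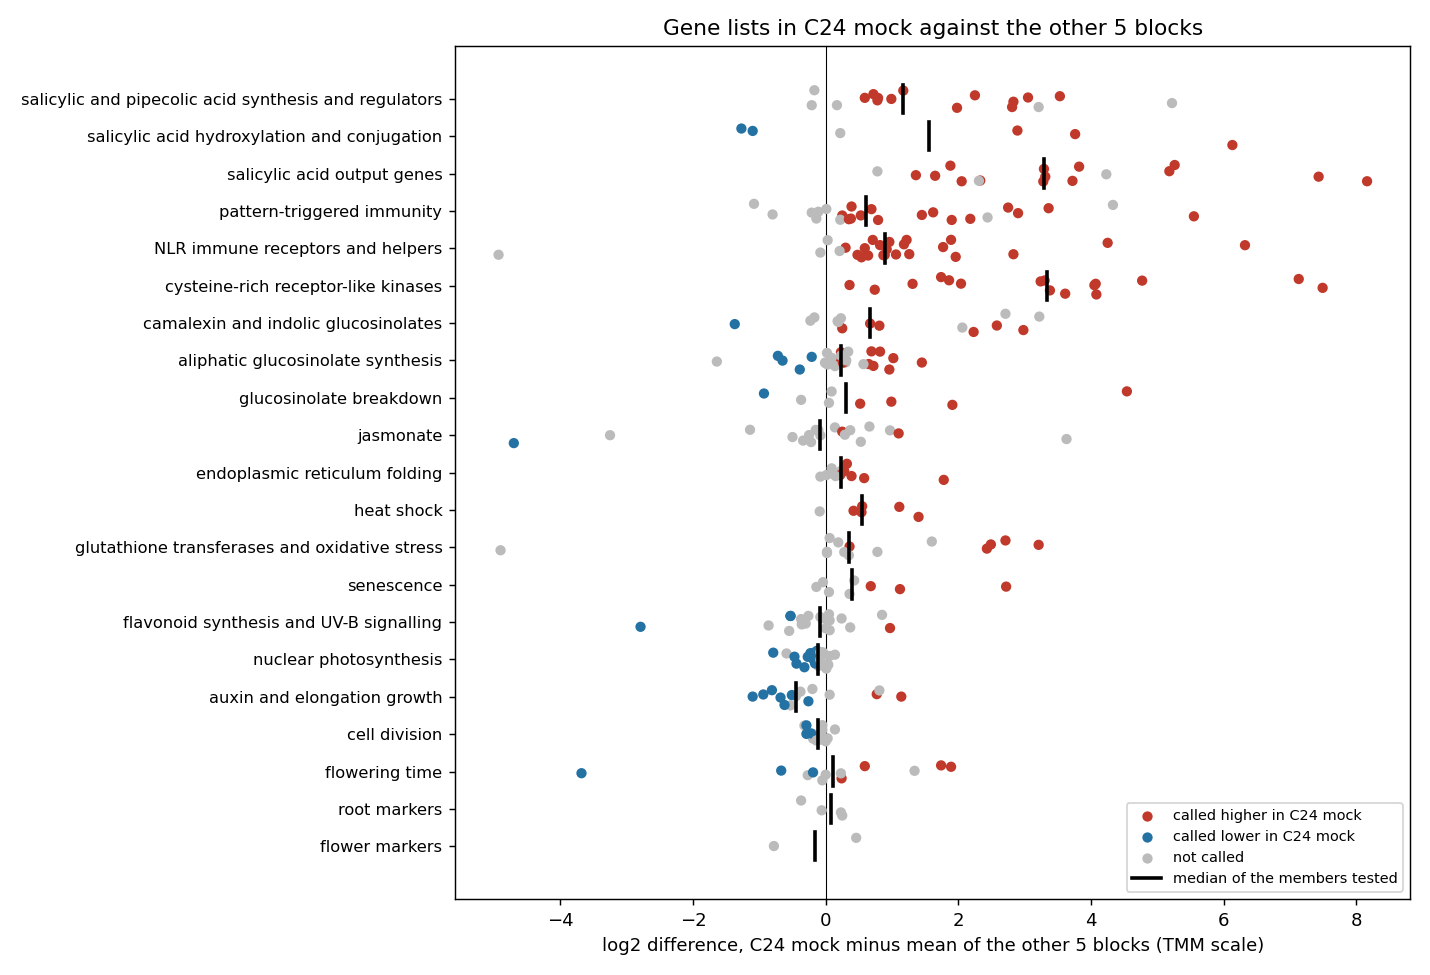
Log2 difference of each listed gene between C24 mock and the mean log2 level of the other 5 blocks (TMM scale), by gene list. Red points were called higher in C24 mock, blue points lower and grey points neither, and black bars are medians. The salicylic acid output genes and the CRKs have the medians farthest to the right (3.29 and 3.34).

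MAM1 (AT5G23010, chr5:7703041-7706973) had 575 and 549 CPM in C24 mock, against 120, 230 and 310.5 CPM as lowest, median and highest of the other 9. The groups did not overlap, and the log2 difference was 1.45 ± 0.12. MAM1 and its neighbour MAM3 are alike in sequence, so their counts are uncertain where reads were shared. MAM3 had 139 and 146 CPM in C24 mock, against 24.8 to 175 CPM, and was called higher with overlap (0.82 ± 0.07). BCAT4, which starts the chain-lengthening pathway, had 434 and 407 CPM in C24 mock, against 93.0 to 314 CPM (1.02 ± 0.08). In the aliphatic glucosinolate list, 10 of 26 were called higher and 4 lower, with a median of 0.23. The shares over all loci were 19.4% and 16.8%, so the share called lower was near that of all loci. In the fit of libraries labelled mock alone, edgeR called 0 of 25, and 2 were higher and 1 lower at an unadjusted p under 0.05. These counts were under the 12.8% and 8.18% of all loci in that fit. FMO GS-OX2, an oxygenase of the side chain, was called higher (0.96 ± 0.15), although Got-7 mock 2 and Got-7 UV 1 had 23.9 and 23.1 CPM against 10.6 and 10.5 CPM in C24 mock.

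Among the genes that break glucosinolates down, 4 of 8 were called higher and 1 lower, beside 19.4% and 16.8% of all loci. TGG2, a myrosinase, had 2246 and 1469 CPM in C24 mock, against 2.28 to 793 CPM (4.54 ± 0.20). Its mean was 1857 CPM in C24 mock against 340 CPM over the 5 blocks. The other main myrosinase gene TGG1 had 5228 and 4294 CPM in C24 mock, against 1692 to 3174 CPM (0.99 ± 0.09). ESP, which steers breakdown to nitriles, had 3634 and 3327 CPM in C24 mock. It had 30.0 and 34.5 CPM in Ba-1 mock 1 and Ba-1 UV 1 and 1487 to 2749 CPM in the remaining 7 of the other 9. Without those Ba-1 libraries C24 mock still lay above the rest. ESM1, which favours isothiocyanates over nitriles, was called lower, at 101 and 101.5 CPM in C24 mock against 104 to 683 CPM (−0.93 ± 0.06). Of the camalexin and indolic glucosinolate genes, 6 of 15 were called higher and 1 lower, beside the same shares of all loci, with a median of 0.67. Without CYP71A12, which was testable only through C24 mock or a single other library, the median was 0.46. Against libraries labelled mock alone 4 of 15 were called higher and 0 lower, beside 3.57% and 1.22% of all loci, with a median of 0.47. With the other 9 as 1 group edgeR called 0 of 15, beside 4.31% of all loci called higher and 3.28% lower, with a median of 0.18. At an unadjusted p under 0.05, 3 were higher and 1 lower in that fit. The share of all loci at that unadjusted p was not counted there. Of the pair of regulators MYB51 and MYB34, MYB51 was called higher (2.23 ± 0.17), at 19.8 and 18.7 CPM in C24 mock against 2.15 to 19.0 CPM. MYB34 was called lower (−1.37 ± 0.11), at 10.3 and 9.96 CPM in C24 mock against 14.4 to 52.0 CPM with no overlap. CYP81F2 and IGMT1, which modify indolic glucosinolates, were called higher (2.98 ± 0.41 and 2.58 ± 0.30). CYP81F2 had 1 block at 3 counts or fewer and a ratio of mean CPM of 4.83. In the same list CYP71B15, CYP71A13 and CYP71A12 had fitted log2 differences of 2.71, 2.06 and 3.22, which enter the median. Each also had 1 block at 3 counts or fewer, and their ratios of mean CPM were 0.715, 0.378 and 0.902. By mean CPM these genes were thus not higher in C24 mock.

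In the 4 stress lists no gene was called lower, beside 19.4% of all loci called higher and 16.8% called lower. Of the glutathione transferase and oxidative stress genes, 5 of 14 were called higher and 0 lower, and 0 were set apart. Their median of 0.35 was within the spread between libraries of a block (SD 0.36). GSTF6 had 179.5 and 144 CPM in C24 mock, against 5.24 to 369 CPM, and GSTF7 had 93.6 and 72.2 CPM, against 0.493 to 210 CPM, each highest in Ba-1 UV 1. Without C24 mock 1 neither was called, and without C24 mock 2 GSTF7 was not. GSTF2 and GSTF3 are near-identical copies and had log2 differences of 2.49 ± 0.24 and 2.43 ± 0.27. Of the endoplasmic reticulum folding genes, 6 of 13 were called higher and 0 lower, with a median of 0.23. CRT3, a calreticulin needed to fold an immune receptor, had 289 and 283 CPM in C24 mock, against 49.0 to 192 CPM (1.78 ± 0.10). Heat shock genes were called higher for 5 of 6 and lower for 0, with HSP90.1 at 14.8 and 11.8 CPM in C24 mock against 3.44 to 9.32 CPM. Of the senescence genes, 3 of 8 were called higher and 0 lower. SAG21 had 66.2 and 65.0 CPM in C24 mock, against 3.44 to 70.1 CPM. Between libraries labelled mock alone, edgeR called 0 genes of these 4 lists, with medians of 0.36 for oxidative stress, 0.29 for folding, 0.55 for heat shock and 0.50 for senescence. At an unadjusted p under 0.05, 3 glutathione transferase or oxidative stress genes were higher and 1 lower. Of the other lists, 4 folding, 2 heat shock and 3 senescence genes were higher. These counts stand beside 12.8% of all loci higher and 8.18% lower in that fit.

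**Figure D3:**
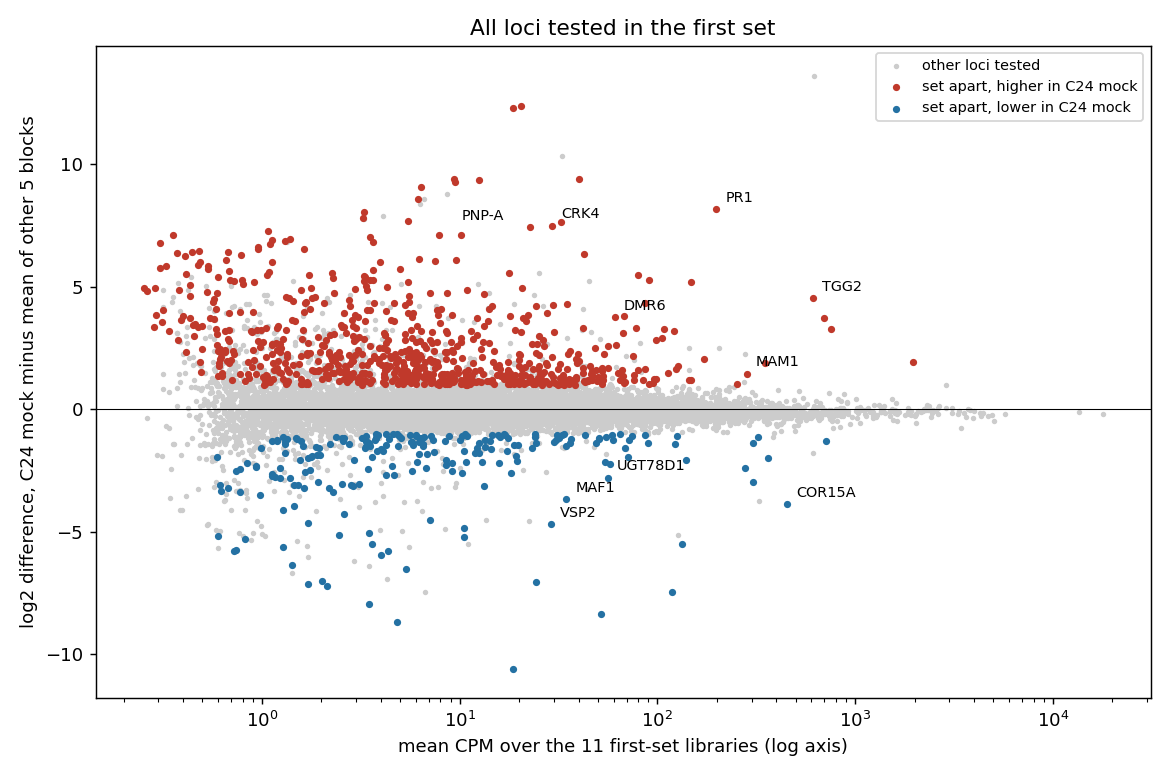
Log2 difference between C24 mock and the mean log2 level of the other 5 blocks against the mean CPM over the 11 libraries (log axis). The 17249 loci tested are shown. Red points are the 707 loci set apart higher in C24 mock and blue points the 213 set apart lower.

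Over all 17249 loci, 3352 were called higher in C24 mock and 2890 lower, and 707 were set apart higher and 213 lower. Among loci with strong signals, 4 were on in C24 mock alone (at least 10 CPM in both C24 mock libraries and under 0.5 CPM in the other 9). AT1G66100, annotated as a thionin of the pathogenesis-related class, had 111 and 114 CPM in C24 mock, against 0 CPM in 8 of the other 9 and 0.164 CPM in Got-7 mock 1. AT3G44430, an uncharacterised protein, had 101 and 103 CPM in C24 mock, against 0 to 0.204 CPM. AT1G63880, a TIR-NBS-LRR receptor gene, had 48.7 and 53.0 CPM in C24 mock, against 0 to 0.283 CPM, and AT5G53700, an RNA-binding protein gene, had 35.2 and 34.3 CPM, against 0 to 0.383 CPM. In the opposite direction, AT5G49640, an uncharacterised protein, was at 0 CPM in both C24 mock libraries and at 16.6 to 32.2 CPM in the other 9. Single-locus states of this kind do not overlap between groups by the way they were chosen.

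Another 5 loci set apart higher were listed at 0 counts in 8 of the other 9 libraries and were expressed in C24 UV 1. BON1, a copine that restrains SNC1, had 40.5 and 40.2 CPM in C24 mock and 23.6 CPM in C24 UV 1. LINC4 (CRWN4), a protein of the nuclear periphery, had 46.6 and 49.6 CPM in C24 mock and 41.5 CPM in C24 UV 1. MMZ2, TRM9 and AT4G37560 showed the same states, with 11.2 to 24.3 CPM in C24 mock and 8.47 to 19.9 CPM in C24 UV 1. Whether a listed 0 at these loci reflects expression or counting was not tested. Of the 413 loci set apart higher with at least 10 CPM in C24 mock, 27 had 0 counts in at least 1 other block. AT4G29200, annotated as related to beta-galactosidase, had 180 and 171 CPM in C24 mock, 48.2 and 42.7 CPM in Got-7 mock 2 and Got-7 UV 1, and 0 to 0.191 CPM in the other 7. AT3G28510, a nucleotide-binding hydrolase, had 25.7 and 26.7 CPM in C24 mock, against 0 to 6.32 CPM, with Ba-1 UV 1 the highest. AT2G25510 and AT5G42530, both uncharacterised, had 1843 and 1806 CPM and 1848 and 1728 CPM in C24 mock. In Ba-1 mock 1 and Ba-1 UV 1 they had 0.641 to 2.26 CPM, and in the remaining 7 libraries 128.5 to 1063 CPM.

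The genes that stood lower included genes known to respond to cold through CBF transcription factors, which bind the C-repeat element. COR15A, which protects chloroplast membranes from freezing, had 38.3 and 34.5 CPM in C24 mock. In the other 9 it had a lowest value of 290 CPM, a median of 550 CPM and a highest value of 827 CPM. The groups did not overlap, and the log2 difference was −3.87 ± 0.26. LTI78 had 29.6 and 54.2 CPM in C24 mock, against 197.5 to 634 CPM (−2.96 ± 0.30), and KIN2 had 50.3 and 64.7 CPM, against 189 to 419 CPM (−2.40 ± 0.08). COR15B had 98.4 and 107 CPM in C24 mock, against 255 to 649 CPM (−1.99 ± 0.16). COR47, a dehydrin, had 122.5 and 137 CPM, against 246 to 432 CPM (−1.39 ± 0.06), and RCI2A, a small membrane protein, had 161 and 173 CPM, against 264 to 456 CPM (−1.12 ± 0.05). These genes were among the 8 with the largest drops in CPM among loci set apart lower. All plants were kept in the same growth conditions according to the labels.

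The promoters of COR15A (chr2:17712331-17712580, minus strand) and LTI78 (chr5:21240467-21240716, plus strand) are shown because the C-repeat core CCGAC is the element the CBF factors bind. Capitals mark CCGAC on either strand in the same TAIR10.1 windows of 250 bases before the gene start.
COR15A: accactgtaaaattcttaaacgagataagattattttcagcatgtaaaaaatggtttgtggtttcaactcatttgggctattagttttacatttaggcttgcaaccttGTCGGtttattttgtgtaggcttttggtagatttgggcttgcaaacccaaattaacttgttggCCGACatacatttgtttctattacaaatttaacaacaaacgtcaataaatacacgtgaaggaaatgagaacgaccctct
LTI78: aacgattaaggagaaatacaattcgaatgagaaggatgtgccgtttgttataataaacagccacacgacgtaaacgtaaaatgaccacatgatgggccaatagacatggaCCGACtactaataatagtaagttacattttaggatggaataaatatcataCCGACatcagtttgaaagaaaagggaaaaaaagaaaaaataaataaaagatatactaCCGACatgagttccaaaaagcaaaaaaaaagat
The COR15A window held 2 cores, 1 of them on the opposite strand, and the LTI78 window held 3. Among all 27443 promoters of this length, 12.0% held the core. The sequence is again that of Columbia, and no binding was measured.

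**Figure D4:**
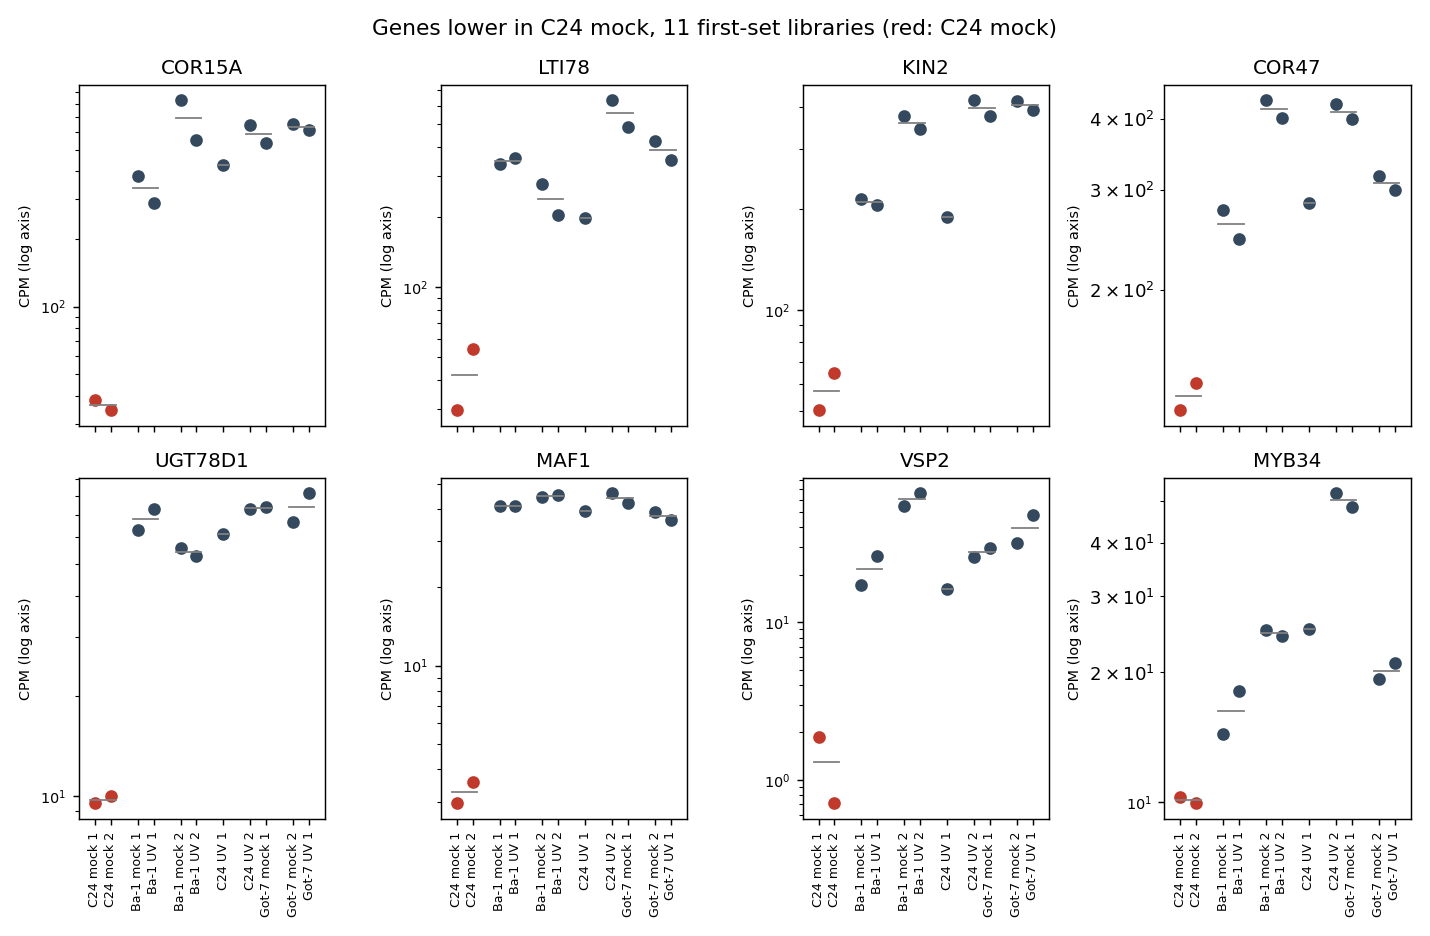
CPM (log axis) of 8 genes lower in C24 mock, in each first-set library, with C24 mock at the left in red and the other 5 blocks after it. Grey bars are block means. In all 8 panels both C24 mock libraries lie under the other 9.

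Other single genes were as far apart. MAF1 (FLM), a floral repressor that responds to temperature, had 2.96 and 3.56 CPM in C24 mock, against 36.2 to 45.9 CPM (−3.68 ± 0.13). The floral repressor FLC had 84.2 and 77.1 CPM in C24 mock, against 89.1 to 114.5 CPM in 5 of the other 9 and 0.164 to 6.63 CPM in the remaining 4. In the flowering list, 4 of 12 were called higher and 3 lower, beside 19.4% and 16.8% of all loci. UGT78D1, which attaches rhamnose to flavonols, had 9.50 and 9.96 CPM in C24 mock, against 52.7 to 81.3 CPM (−2.79 ± 0.11). It was the only flavonoid or UV-B gene set apart: of 19 tested, 1 was called higher and 3 lower, the latter a share near that of all loci. HY5, a transcription factor gene of UV-B signalling, was called lower by a small margin (−0.53 ± 0.14), at 8.72 and 8.94 CPM in C24 mock against 9.33 to 16.1 CPM. The call of HY5 was lost without C24 mock 2.

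VSP2, a jasmonate-responsive storage protein gene, had 1.87 and 0.711 CPM in C24 mock, against 16.3 to 65.7 CPM (−4.70 ± 0.43). In the jasmonate list 2 of 19 were called higher and 1 lower, with a median of −0.08, beside 0.00 over all loci. Both shares were under the 19.4% and 16.8% of all loci. ARGAH2, an arginase induced by jasmonate, had 0.311 and 0 CPM in C24 mock, against 2.92 to 92.4 CPM, and AT3G28220, annotated as TRAF-like, had 3.74 and 1.52 CPM, against 27.1 to 543 CPM (−5.50 ± 1.25). The calls of ARGAH2 and AT3G28220 were lost without C24 mock 1 and without C24 mock 2. AT1G27570 and AT1G27540, annotated as a lipid kinase family protein and an F-box protein, had 0 and 0.203 CPM and 0.311 and 0.508 CPM in C24 mock. In the other 9 libraries they had 6.32 to 155 CPM and 2.02 to 312 CPM, lowest in Ba-1 mock 2 and Ba-1 UV 2. HOL2, AT5G18840, CIPK25, AT4G20480 and MIOX1 were at or under 0.305 CPM in both C24 mock libraries. Among the other 9, their lowest values were 0.239 to 2.11 CPM and their highest 11.4 to 39.4 CPM. UBQ10, a polyubiquitin gene often used as a control, had 307 and 354 CPM in C24 mock, against 672 to 920 CPM (−1.31 ± 0.07). Its ubiquitin repeats are alike to those of other ubiquitin genes, so its counts are uncertain.

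Lists of growth genes had more genes called lower than higher, beside 16.8% of all loci called lower and 19.4% called higher. Of 26 nuclear photosynthesis genes, 12 were called lower and 0 higher, with a median of −0.12. LHCA3, a light-harvesting protein of photosystem I, had 2246 and 2217 CPM in C24 mock, against 3318 to 4106 CPM (−0.79 ± 0.04). Of 15 auxin and elongation genes, 7 were called lower and 2 higher, with a median of −0.45. PRE1, a growth regulator, had 2.65 and 4.57 CPM in C24 mock, against 5.42 to 10.6 CPM (−1.1 ± 0.20). ATHB2, a shade-response factor, had 9.19 and 9.14 CPM, against 1.84 to 6.45 CPM (1.14 ± 0.19). Of 14 cell division genes, 3 were called lower and 0 higher, with a median of −0.11, a share near the 16.8% of all loci called lower. PCNA1, MCM5 and KNOLLE, the 3 called, lost the call without C24 mock 2. With libraries labelled mock alone, edgeR called 1 of 26 photosynthesis genes lower, 1 of 14 auxin genes higher and 0 of 14 cell division genes. At an unadjusted p under 0.05, 4 photosynthesis genes were lower and 1 higher, 4 auxin genes lower and 1 higher, and 2 cell division genes lower and 0 higher. The auxin median there was −0.35, and 8.18% of all loci were lower and 12.8% higher at that unadjusted p.

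The second set, columns 12 to 22, was not used to choose the blocks or fit the values, and was examined without a test. MAM1 was at 50.0 to 217 CPM in its 11 libraries, so that both C24 mock libraries had the highest MAM1 values of all 22. PNP-A was not low throughout the second set: it stood at 55.8 to 257 CPM in 9 libraries and at 0.212 and 0.220 CPM in T1080 UV 1 and T1080 UV 2. DMR6 was at 37.1 to 198 CPM there, under both C24 mock libraries and above 8 of the other 9 first-set libraries, Ba-1 mock 1 excepted. PR1 was at 668 CPM in Lip-0 UV 2 and 535 CPM in Mh-0 mock 1, and at 0.126 to 18.4 CPM in the other 9. Genes of synthesis differed: ICS1 was at 159 to 1055 CPM, PBS3 at 74.7 to 758 CPM and CBP60G at 50.05 to 195.7 CPM. For each, all 11 libraries lay above both C24 mock libraries, while PAD4, at 29.5 to 214 CPM, lay on both sides. Of the 707 loci set apart higher, C24 mock lay beyond all 11 second-set libraries at 191, and of the 213 set apart lower at 47. The share of all loci tested at which C24 mock lay beyond those 11 libraries was not counted, so these numbers are descriptions only. Of the cold-regulated genes lower in C24 mock within the first set, RCI2A was at 27.9 to 103.5 CPM in the second set, under both C24 mock libraries. Second-set values of COR15B, LTI78, KIN2 and COR47 lay on both sides of the C24 mock values. Levels were not tested between the sets. By their labels the sets hold different accessions, so from the labels accession and any differences in handling cannot be told apart.

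Lip-0 UV 2 and Mh-0 mock 1 of the second set had the C24 mock state at all 5 on-or-off loci, and each of the other 9 had it at 0 of 5. COR15A was at 34.3 and 34.2 CPM in these libraries, against 175 to 458 CPM in the other 9. UGT78D1 was at 4.38 and 2.33 CPM, against 33.7 to 90.0 CPM, and MAF1 at 3.28 CPM in both, against 33.0 to 42.9 CPM. Of the 707 loci set apart higher in C24 mock, 500 (70.7%) had their highest second-set value in Lip-0 UV 2 or Mh-0 mock 1, beside 20.9% of all loci tested. Of the 213 set apart lower, 163 (76.5%) had their lowest value there, beside 37.4% of all loci tested. These libraries carry other labels than C24 mock, and no library was regrouped.

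**Figure D5:**
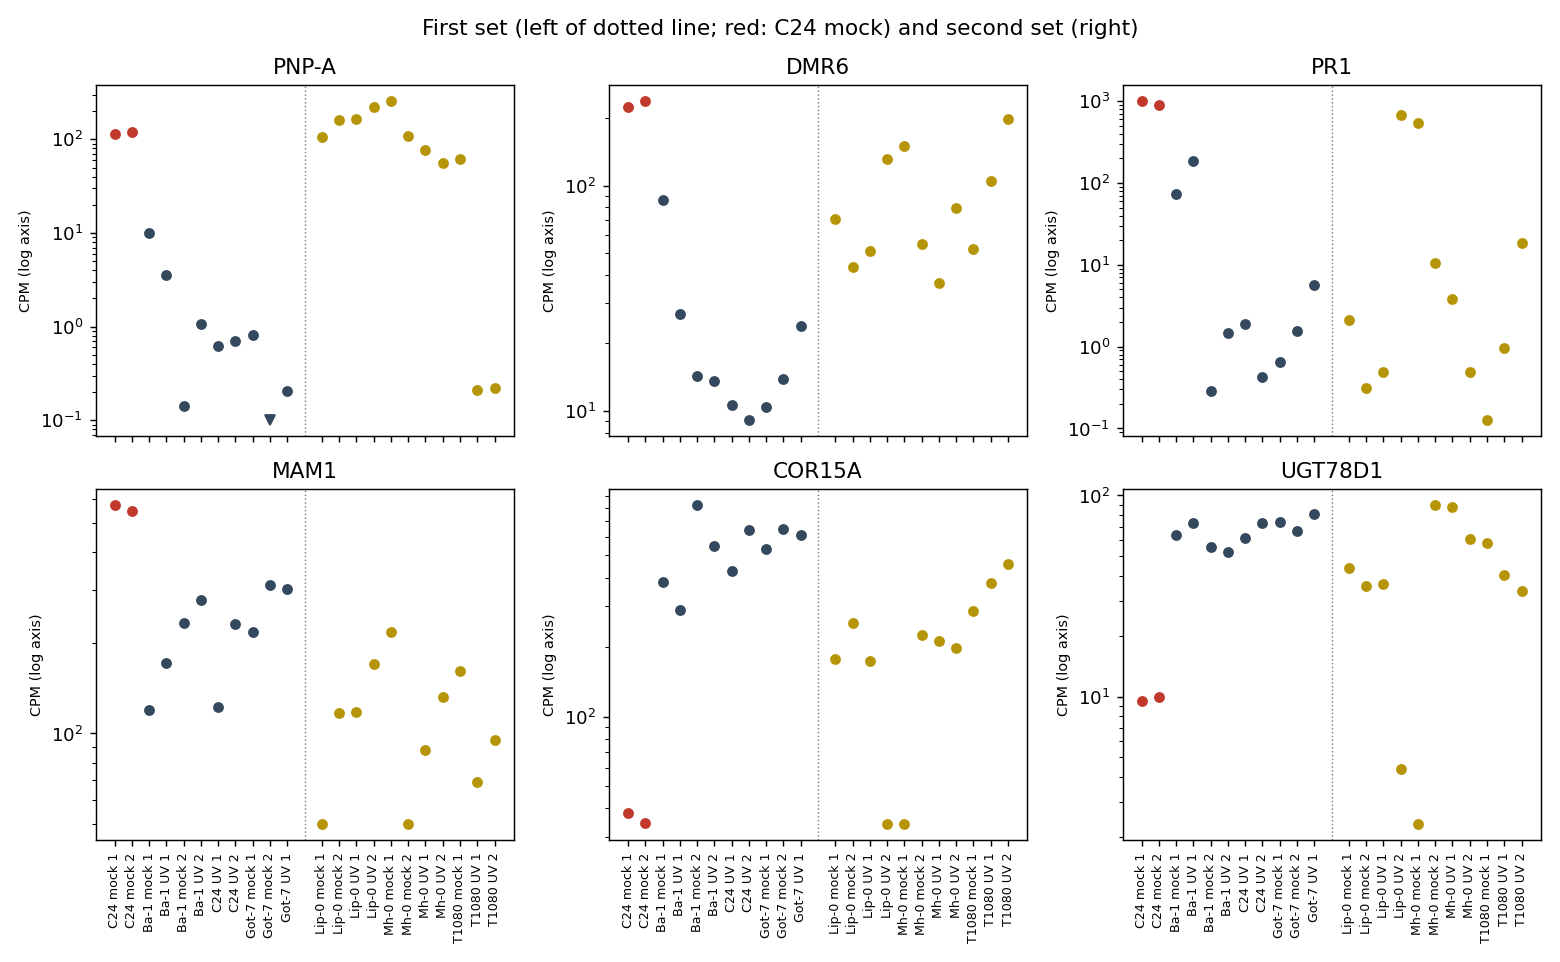
CPM (log axis) of 6 genes in all 22 libraries, with C24 mock in red, the other 9 first-set libraries in dark blue and the second set in gold right of the dotted line. In Lip-0 UV 2 and Mh-0 mock 1, PR1 stands at 668 and 535 CPM, COR15A and UGT78D1 are at or under their C24 mock values, and MAM1 is under its C24 mock values.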

How the data were processed

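Per the labels, whole seedlings were profiled by RNA sequencing with TruSeq libraries. The deposited table held raw counts (whole numbers, not normalized) of 24185 loci in 22 libraries. Per the submitters' processing notes, the tools included FastQC and TopHat and the genome builds TAIR9 and TAIR10. The counting program and any use of strand were not given in the sources used here. Gene symbols and promoters came from RefSeq TAIR10.1 by locus code, which matched 23847 loci.

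The 17249 loci that reached 1 CPM in 2 or more of the 11 first-set libraries were fitted with edgeR 4.0.16 (quasi-likelihood, robust, TMM factors), with 1 mean for each of 6 blocks and 5 residual degrees of freedom. The contrast was C24 mock minus the unweighted mean of the other 5 block means, taken on the log2 scale. The Benjamini-Hochberg adjustment was over all loci tested. Called means an adjusted p under 0.05. The biological coefficient of variation was 7.61%. The fit was tested on simulated data. Alternatives used DESeq2 1.42.0 and limma 3.58.1, other scalings and filters, other groupings, a replicate block and each library left out.

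The blocks, the 22 lists and the tests were chosen with earlier results of these data known. Of 354 list members, 306 were tested, 7 were not matched in the table and 1 was left out because its reference symbol contradicted the list. Named genes were MAM1, PNP-A and DMR6; the 12 highest and 12 lowest log2 differences among loci set apart with at least 10 CPM in C24 mock or another block; the 8 highest and 8 lowest differences in mean CPM; up to 4 called members of each list; and loci on or off in C24 mock alone. PR5, ICS1, EDS1, ICS2, ALD1, FMO1, ACD6, AIG1, SAG13, UGT74F1, RPM1, CYP71B15, CYP71A13 and CYP71A12 were added after their values were seen.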

Additional observations from a re-analysis of the deposited data

How the results depend on the processing

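The counts of called loci depended on how the other 9 libraries were grouped and on the tool. DESeq2 called 2106 loci higher in C24 mock and 1522 lower, beside 3352 and 2890. With the other 9 libraries as 1 group, 743 and 565 were called and 370 and 127 set apart, and with labelled groups in place of blocks 679 and 366 were called and 377 and 92 set apart, beside 707 and 213. With libraries labelled mock alone, chosen after seeing the data, 603 and 206 were called and 425 and 103 set apart; 328 of the 707 and 82 of the 213 were shared. With at least 5 CPM in 2 libraries, 139 were set apart lower, with fewer loci tested. Leaving out 1 library gave 2131 to 3768 called higher, 1347 to 3206 called lower, 670 to 832 set apart higher and 210 to 232 set apart lower. Without C24 mock 1, 1788 were called lower, and without C24 mock 2, 2131 higher and 1347 lower; 1 library is then assumed to vary like the other groups.

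List medians were compared with the spread between libraries of a block. For synthesis and regulators (1.17) the median was 0.99 at 5 CPM, 0.97 with 1 group, 1.05 with labelled groups and 1.40 without Ba-1 mock 1 and Ba-1 UV 1, the last also chosen after seeing the data. For hydroxylation and conjugation (1.55) it was 2.87 at 5 CPM, 1.00 with 1 group, 1.3 with labelled groups, 1.97 without those Ba-1 libraries and 1.74 with libraries labelled mock. For output genes (3.29) it was 2.32 with 1 group and 3.74 without those Ba-1 libraries. Leaving out 1 library gave 1.08 to 1.25, 1.34 to 1.93 and 3.01 to 3.63 for synthesis, conjugation and output genes. The cause of these shifts was not tested. No named gene changed direction under any of the 22 alternatives in which it was fitted, but calls were lost for 66 of the 104 with libraries labelled mock alone, 62 with 1 group, 63 with labelled groups and 10 with DESeq2. Only 25 kept call and direction in every alternative that fitted them.

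The replicate numbers were not taken to pair the libraries, since 3 of 10 correlations of replicate differences between labelled groups were over 0.1 and the lowest was −0.40. Ba-1 mock and Ba-1 UV did deviate together (0.65), and the blocks join them by number. With the replicate block, 3190 loci were called higher and 2746 lower, and 695 and 208 were set apart. Ba-1 mock 1, the shallowest library at 3539510 counts, limits what can be said of low genes.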

Other observations

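The cold-regulated genes were followed in a list added after values were seen, so its count is a description. Of 16 such genes tested, 14 were called lower in C24 mock, 1 was called higher and 8 were set apart lower. Over all loci, 16.8% were called lower, 19.4% called higher and 1.23% set apart lower. The median log2 difference of the 16 was −1.36, beside 0.00 over all loci tested. With libraries labelled mock alone 8 of 16 were called lower and 0 higher, beside 1.22% and 3.57% of all loci. The median there was −1.44. The transcription factor gene CBF3 had 1.87 and 3.05 CPM in C24 mock, against 4.59 to 9.02 CPM in the other 9. GOLS3, which makes galactinol, had 0.156 and 0.305 CPM in C24 mock, against 0.806 to 4.53 CPM. KIN1, a near copy of KIN2 whose reads may be shared with it, had 0.778 and 1.02 CPM in C24 mock, and 0.283 CPM in Ba-1 mock 1 but 8.35 to 76.1 CPM in the other 8. The gene called higher was COR27, of cold and clock control, at 83.9 and 84.9 CPM in C24 mock against 56.6 to 84.0 CPM. LTI65 was not called, at 1.56 and 1.52 CPM in C24 mock against 0.565 to 4.39 CPM.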
